A study of Mus musculus with 8 samples.

Results

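The genes described here encode the keratin-associated proteins of the hair shaft, whose symbols begin with Krtap followed by a subfamily number. They were chosen by name: 43 probe sets (groups of probes on the array read out together) carried exactly 1 gene symbol of this form, and they stood for 38 of the 18193 genes measured, in 22 subfamilies. For each of these genes the probe set with the highest mean over the 8 arrays was used. The subfamilies Krtap19 with 6 genes, Krtap4 and Krtap5 with 5 each, Krtap6 with 3 and Krtap13 with 2 had more than 1 measured gene. By genome position 20 of the genes lie on chromosome 16, 10 on chromosome 11, 5 on chromosome 7, 2 on chromosome 10 and 1 on chromosome 1. A further 6 Krtap probe sets carried several gene symbols and were left out of the counts.

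RNA came from dorsal skin taken at 10 weeks of age from females of the hairless strain Hos:HR-1. The control group ate AIN-93G, a purified rodent diet, for 1 week, and the collagen group ate AIN-93G to which a hydrolysate of fish-scale collagen, a mix of peptides, was added at 2.0 g per 100 g, for the same time. Each diet had 4 arrays, called here control 1 to 4 and collagen 1 to 4 after the labels, which call them biological replicates. Both groups were hairless, so no haired skin was there for comparison, and whole powdered skin was used, so each value mixes hair follicles with all other cells of the skin. Feeding began at 9 weeks of age, with 8 mice per diet and 4 per cage. The collagen dose was 2.0 g per kg body weight per day. The sources used here do not give which of these mice and cages each array stands for, so cage could not be taken into account.

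Keratin-associated proteins are small structural proteins made late in the differentiation of hair shaft cells. They fill the matrix between the keratin filaments of the cortex and cuticle and are joined to the keratins by disulfide bonds. By composition they fall into high sulfur, ultra-high sulfur and high glycine-tyrosine classes, and their genes sit in clusters of short, closely spaced genes. The lower follicle of hairless mutants comes apart after the first hair cycle, and such skin makes few normal shafts.

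Promoters of 36 of the 38 genes were found in the RefSeq table of assembly GRCm38.p6, and the 150 bases before each gene's start were searched. The 5 windows printed here belong to the genes on which the results turn: Krtap8-1 (chr16:89487953-89488102, minus strand), Krtap22-2 (chr16:89010760-89010909, minus strand) and Krtap4-6 (chr11:99665961-99666110, minus strand) had wide ranges, Krtap19-3 (chr16:88878039-88878188, minus strand) had another order of the arrays, and Krtap13 (chr16:88751629-88751778, minus strand) was nearly flat. Each reads 5′ to 3′ and ends at the base before the gene's start. Capitals mark TATAAA, the TATA box, or TATATAA with the A after it where the motifs overlap.
Krtap8-1: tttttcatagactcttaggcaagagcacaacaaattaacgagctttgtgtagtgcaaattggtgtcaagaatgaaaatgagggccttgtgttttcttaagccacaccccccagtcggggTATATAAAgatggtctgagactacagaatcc
Krtap22-2: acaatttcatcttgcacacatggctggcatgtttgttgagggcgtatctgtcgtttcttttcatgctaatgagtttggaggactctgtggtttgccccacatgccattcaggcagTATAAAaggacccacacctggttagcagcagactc
Krtap4-6: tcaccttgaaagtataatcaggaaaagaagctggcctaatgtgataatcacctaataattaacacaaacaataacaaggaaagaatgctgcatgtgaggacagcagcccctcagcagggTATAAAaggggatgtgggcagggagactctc
Krtap19-3: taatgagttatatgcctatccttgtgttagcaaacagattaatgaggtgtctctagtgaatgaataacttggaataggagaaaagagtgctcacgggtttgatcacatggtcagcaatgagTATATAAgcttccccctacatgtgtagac
Krtap13: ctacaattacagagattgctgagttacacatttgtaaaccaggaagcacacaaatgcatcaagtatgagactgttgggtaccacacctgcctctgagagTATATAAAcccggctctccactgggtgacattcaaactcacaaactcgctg

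On the gene's own strand TATAAA stood in 28 of the 36 Krtap windows (77.8%) and in 4.84% of all 32851 promoters of the table. On both strands the shares were 77.8% and 7.57%. TATAAA or TATATAA, which overlap in TATATAAA, stood in 34 of 36 (94.4%) against 5.66% of all promoters on the gene's own strand, and 8.54% on both. In the 28 windows the distance of TATAAA from the start was 27 to 63 bases, and in 21 of them 25 to 40 bases. The 8 genes without TATAAA were Krtap5-3, Krtap5-4, Krtap14, Krtap15, Krtap19-1, Krtap19-2, Krtap19-3 and Krtap19-4, and 6 of them held TATATAA. The core bound by Hoxc13, a homeodomain factor of the hair matrix (TTTATN or TTAATN followed by AA, AG, GA or GG, both strands, which can overlap a TATA box), stood in 11 of 36 windows (30.6%) and 9.95% of all. The LEF1 core CTTTGAA or CTTTGAT on both strands stood in 2 of 36 (5.56%) against 4.13%, and GACGC, the core of Foxn1, on both strands in 2 of 36 against 16.6%. These matches are descriptions of letters in the windows, and a missing match says only that these letters are not there.

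The deposited values were read as being on a log2 scale. Array medians ran from 8.1929 to 8.1932, and the median of all probe set means was 8.193. Ranges over the arrays were small and unequal between probe sets, so a difference is stated on that scale with a standard error (SE) or in units of the within-group standard deviation (SD), and no fold change is given. Signal over background is unknown, and the 4 arrays per diet limit the precision. Where nothing else is stated, SD and SE rest on n = 4 arrays per diet.

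Krtap means ran from 7.17 in Krtap19-2 and Krtap19-3 to 9.95 in Krtap8-1, and 12 of 38 lay at or above 8.193, against 63.7% of all genes, whose probe sets were chosen in the same way. The genes at or above it by class were 6 of 10 high sulfur, 3 of 12 ultra-high sulfur and 3 of 13 high glycine-tyrosine genes. They were Krtap3-1, Krtap10-4, Krtap11-1, Krtap12-1, Krtap13-1 and Krtap15 of the high sulfur class, Krtap4-6, Krtap5-1 and Krtap17-1 of the ultra-high sulfur class, and Krtap7-1, Krtap8-1 and Krtap22-2 of the high glycine-tyrosine class. All 6 measured Krtap19 genes and all 3 Krtap6 genes lay below it. These are levels of single probe sets and give no order of abundance between genes.

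The spread between arrays was wide for a deposited scale on which most genes hardly moved. The median range of the 38 genes over the 8 arrays was 0.0363, at the 99.6th percentile of all genes. Of the 21 genes with a range over 0.1 there were 6 Krtap genes (Krtap22-2 with 0.237, Krtap15 with 0.227, Krtap8-1 with 0.208, Krtap6-5 with 0.195, Krtap16-3 with 0.157 and Krtap7-1 with 0.121). Of the 762 genes with a range over 0.001 there were 33 Krtap genes. The 0.157 of Krtap16-3 is from its main probe set, of a kind whose probes can match several transcripts. Its second probe set had a range of 0.0092. Spread differed within and between subfamilies. The median range was 0.0464 in Krtap4, 0.00737 in Krtap6, 0.00397 in Krtap19 and 0.00256 in Krtap5, and Krtap6 alone ran from 0.00635 in Krtap6-3 to 0.195 in Krtap6-5. The 5 Krtap genes under 0.001 were Krtap10-4, Krtap19-4, Krtap31-1, Krtap19-1 and Krtap13, of which Krtap13 had the smallest range, 1.54e-06. Whether such a range reflects the spread in the skin or the unstated processing was not tested.

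Krtap8-1, a high glycine-tyrosine gene, read 10.02, 9.97, 9.93 and 9.99 in control arrays 1 to 4 and 9.82, 9.94, 10.03 and 9.89 in collagen arrays 1 to 4. Its highest and its lowest value were both from collagen-fed mice, collagen 3 and collagen 1. Krtap22-2, of the same class, read 8.83, 8.77, 8.74 and 8.80 in the control arrays and 8.62, 8.76, 8.86 and 8.70 in the collagen arrays. It repeated that order at the ends, with collagen 3 on top and collagen 1 at the bottom. Krtap15, a high sulfur gene, read 8.54, 8.48, 8.47 and 8.52 in the control arrays and 8.36, 8.36, 8.59 and 8.40 in the collagen arrays. Here collagen 3 lay above all control arrays and the other collagen arrays below all of them, so that the diets overlapped through 1 array.

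**Figure D1:**
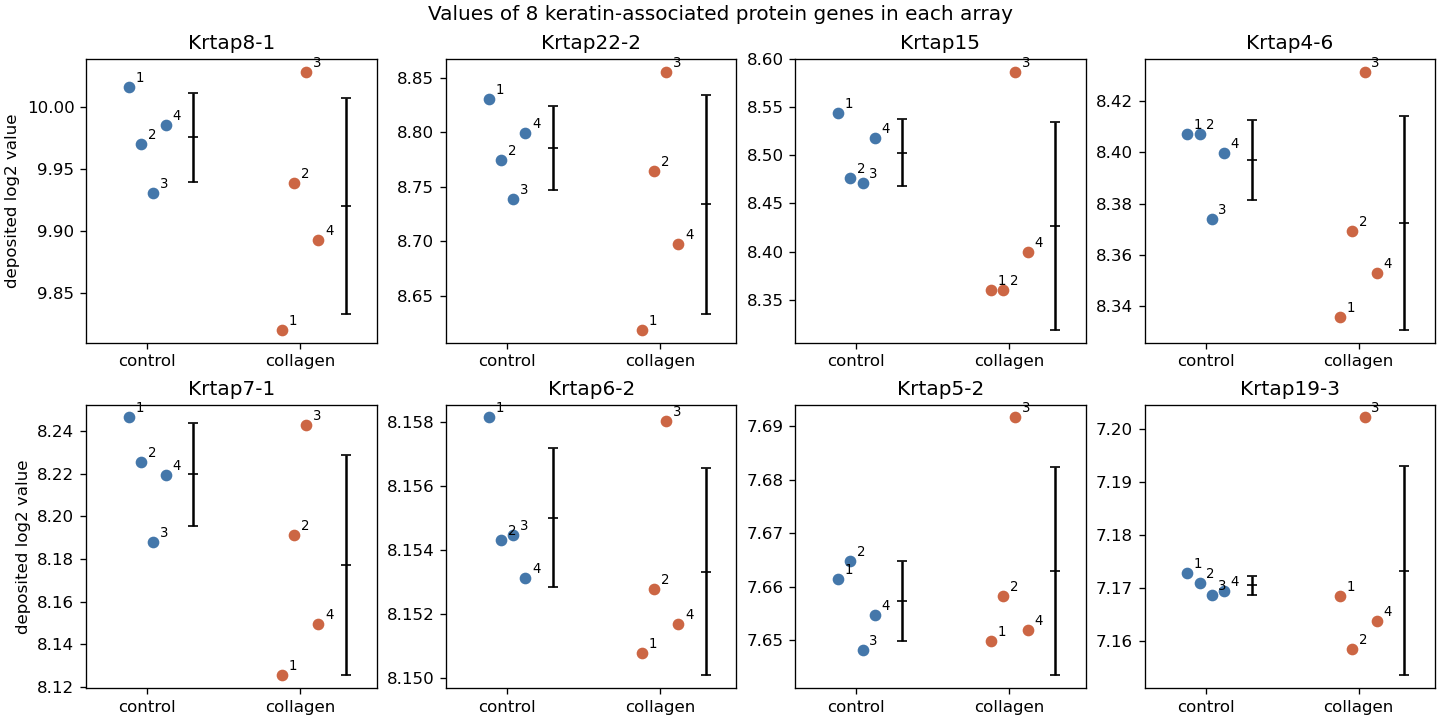
Deposited values of 8 keratin-associated protein genes, read as log2 (y axis, a separate scale for each gene). The x axis holds the control and collagen arrays, with points numbered by replicate. Bars show the mean ± SD of 4 arrays, and in 6 of the 8 panels collagen 3 is the highest point, with control 1 above it for Krtap7-1 and Krtap6-2.

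Among the ultra-high sulfur genes Krtap4-6 read 8.41, 8.41, 8.37 and 8.40 in the control arrays and 8.34, 8.37, 8.43 and 8.35 in the collagen arrays. Krtap5-2, from a subfamily known from the hair cuticle, read 7.661, 7.665, 7.648 and 7.655 in the control arrays and 7.650, 7.658, 7.692 and 7.652 in the collagen arrays. Collagen 3 stood alone above the rest in Krtap5-2, while in Krtap4-6 the other 3 collagen arrays also lay below all control arrays. Krtap19-3, a high glycine-tyrosine gene, read 7.173, 7.171, 7.169 and 7.169 in the control arrays and 7.168, 7.158, 7.202 and 7.164 in the collagen arrays. The SD was 0.00181 among its control arrays and 0.0198 among its collagen arrays, and its lowest array was collagen 2.

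The same arrays marked the ends in most members. Collagen 3 was the highest array in 33 of 38 Krtap genes, against 7.16% of all genes, and control 1 was the highest in 4 (Krtap6-2, Krtap6-3, Krtap7-1 and Krtap31-1), against 12.4%. The pair collagen 3 and control 1 held the top of 32 genes, against 2.9% of all genes. The lowest array was collagen 1 in 19 Krtap genes (17.6% of all genes) and collagen 2 in 11 (15.3%). In 34 it was a collagen array, while of all 18193 genes 3198, 2778, 1561 and 1781 were lowest in collagen 1 to 4. The SD was larger among the collagen arrays in 36 of 38 genes, against 55.9% of all genes. The median ratio of the collagen SD to the control SD was 2.45 for Krtap genes and 1.10 for all genes. By subfamily this ratio was 6.93 in Krtap19, 2.96 in Krtap5, 2.58 in Krtap4 and 1.49 in Krtap6. In bulk skin, fewer shaft-forming cells and less RNA in each such cell cannot be told apart.

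**Figure D2:**
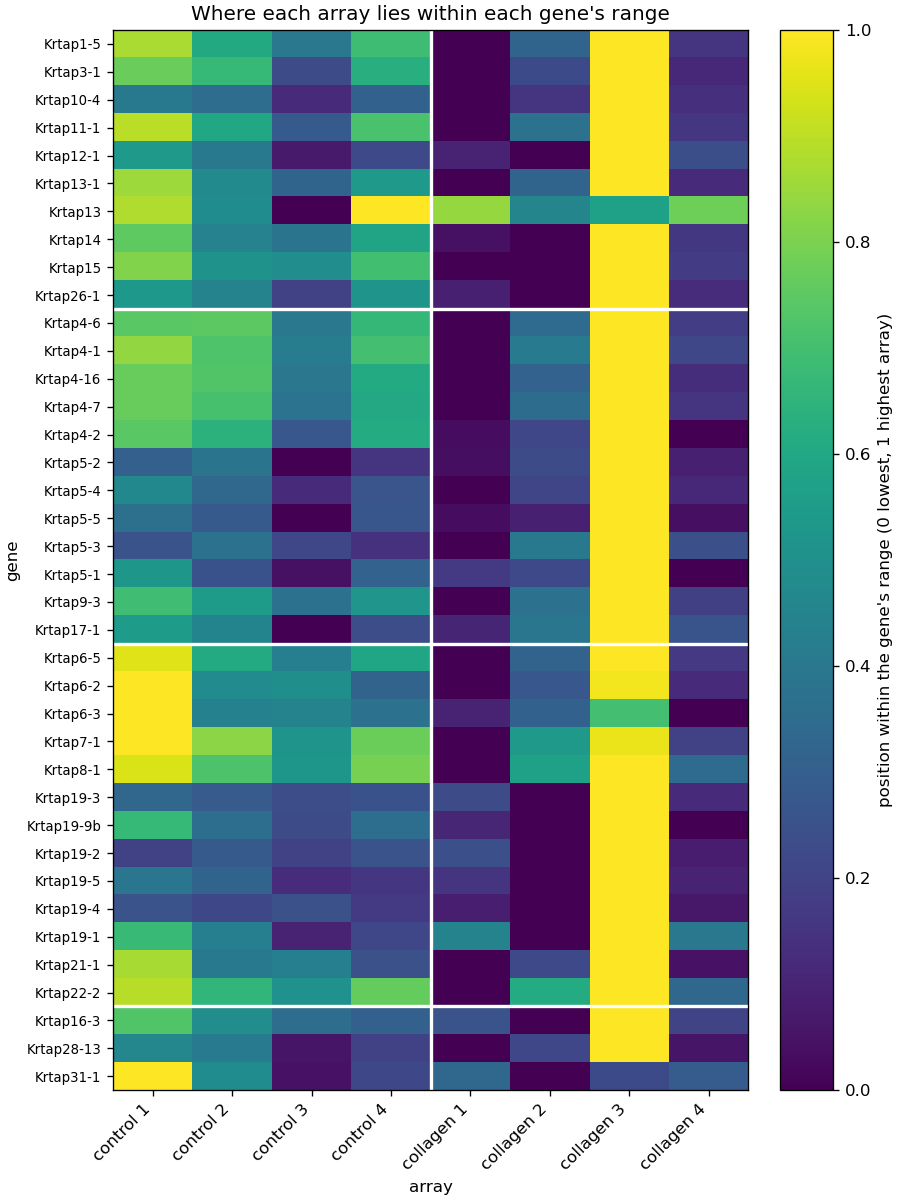
Position of each array (x axis) within the range of each Krtap gene (y axis, grouped by class with white lines), from 0 for the gene's lowest array to 1 for its highest. The collagen 3 column is at 1 in 33 of 38 genes, and collagen 1 or collagen 2 is at 0 in 30.

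Krtap genes moved together from array to array. Over the 703 pairs the median Pearson r across the 8 arrays was 0.842 (Spearman 0.833), and 88.6% of pairs had r over 0.5. Over all gene pairs the median was 0.0069 with 13.7% over 0.5, and over pairs of other genes with a range above 0.001 it was 0.123 with 23.1%. All pairs share the same 8 arrays, so these values describe a common order and carry no test. With collagen 3 and control 1 both left out the median among Krtap genes was 0.620.

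Subfamilies were compared by Pearson r and by Spearman rho over the same arrays. The median r was 0.993 within Krtap4, 0.950 within Krtap5, 0.949 within Krtap6 and 0.905 within Krtap19. Between subfamilies it was 0.882 for Krtap5 with Krtap19, 0.880 for Krtap4 with Krtap6, 0.807 for Krtap4 with Krtap5, 0.719 for Krtap4 with Krtap19, 0.707 for Krtap5 with Krtap6 and 0.667 for Krtap6 with Krtap19. So by Pearson r each of the 4 subfamilies was closer within itself than to another. By ranks this did not hold for all. The median rho was 0.976 within Krtap4, 0.905 within Krtap6, 0.845 within Krtap5 and 0.833 within Krtap19, while it was 0.905 for Krtap4 with Krtap6 and 0.833 for Krtap4 with both Krtap5 and Krtap19. Krtap5 with Krtap19, first among the pairings by r, was last by rho, with 0.619. Composition classes were not all closer within themselves by Pearson r. The median r was 0.894 within the high sulfur, 0.873 within the ultra-high sulfur and 0.807 within the high glycine-tyrosine genes. Between classes it was 0.882 for high sulfur with ultra-high sulfur and 0.832 for high sulfur with high glycine-tyrosine. For ultra-high sulfur with high glycine-tyrosine it was 0.813. Krtap13 stood apart with a median r of 0.0258 to the other 37 genes, and Krtap31-1 had 0.335. Both had ranges under 0.001, but so had Krtap10-4, Krtap19-4 and Krtap19-1, whose median r was 0.883, 0.785 and 0.642 in that order. The 33 genes with wider ranges had a median r of 0.866 among themselves.

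**Figure D3:**
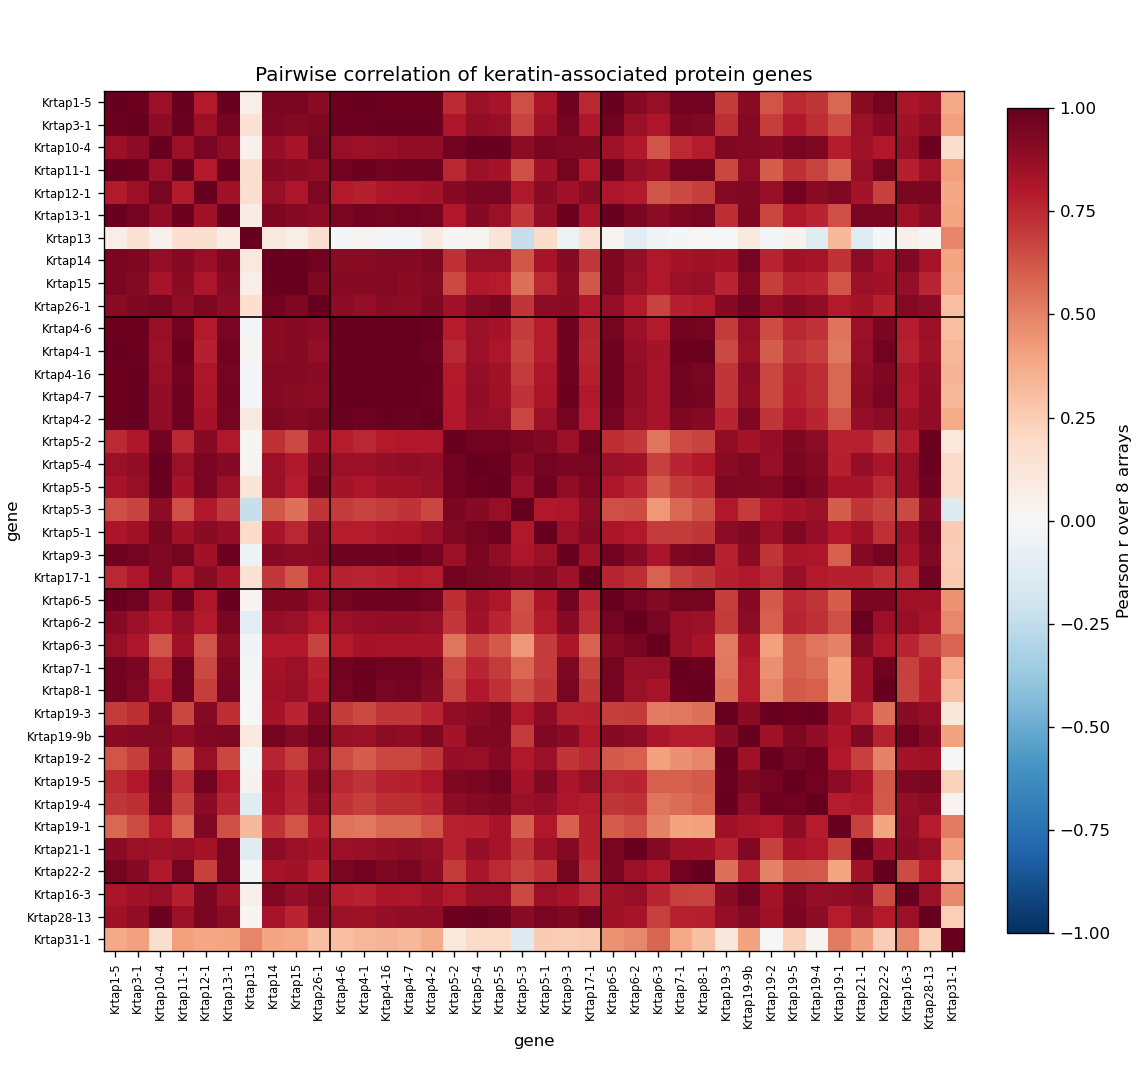
Pearson r over 8 arrays between each pair of the 38 Krtap genes (both axes, black lines between classes; red above 0, blue below 0). The rows of Krtap13 and Krtap31-1 are pale, with median r of 0.0258 and 0.335, while the Krtap4 block has a median of 0.993.

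Along chromosome 16 neighbouring genes often shared the order of the low arrays. Of the first 3 measured genes collagen 2 lay below collagen 1 in 2, Krtap26-1 and Krtap13, and above it in Krtap13-1 between them. In the 9 consecutive measured genes from Krtap14 to Krtap16-3 (Krtap14, Krtap15, the 6 Krtap19 genes and Krtap16-3), collagen 2 lay below collagen 1 in 9 of 9, by 0.00149 to 0.447 of the gene's range. Collagen 2 was the lowest array of all in 8 of them. In the next 8 genes, from Krtap22-2 to Krtap11-1, collagen 2 lay above collagen 1 in 8 of 8, by 0.215 to 0.617 of the range, and collagen 1 was the lowest array in 7. Among the 10 genes of chromosome 11 collagen 2 was below collagen 1 in 1, Krtap31-1, and among all genes in 51.5%. The counts of collagen 2 below collagen 1 in both chromosome 16 stretches were the same after quantile normalization and after median centring. In the stretch from Krtap14 to Krtap16-3 collagen 2 was then the lowest array in 7 and 6 genes, in that order. Array medians differed by more than the ranges of Krtap19-1 (4.5e-06) and Krtap19-4 (9.31e-05). The sign of these 2 genes after centring can therefore come from the shift of the arrays. The stretches were chosen after their values were seen, so no test was made. Of the 8 promoters without TATAAA 6 belong to the stretch from Krtap14 to Krtap16-3, and all 6 of these hold TATATAA. Whether promoter letters go with the order of the arrays was not tested.

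**Figure D4:**
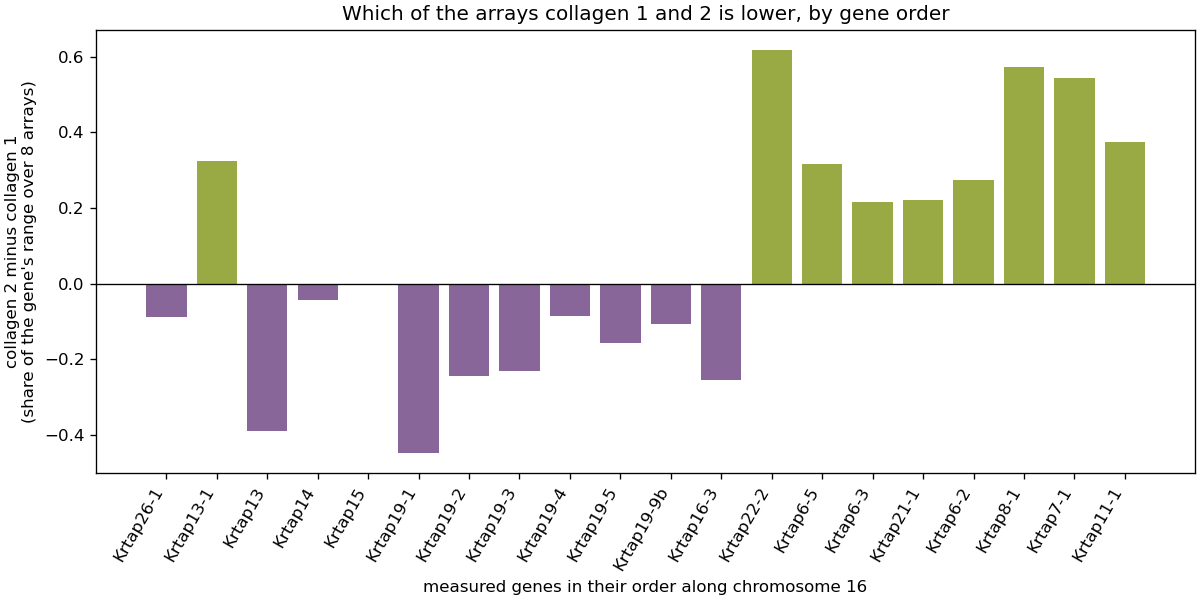
Collagen 2 minus collagen 1 as a share of each gene's range (y axis) for the 20 measured Krtap genes in their order along chromosome 16 (x axis, not to genomic scale). Bars are below 0 for all 9 genes from Krtap14 to Krtap16-3, the bar of Krtap15 being -0.00149 and too short to see, and above 0 for all 8 from Krtap22-2 to Krtap11-1.

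Other genes of the hair shaft followed the Krtap genes to different degrees. Median r with the Krtap genes was 0.819 for the 12 measured hair shaft keratins, the filament proteins that Krtap proteins bind, and 0.736 for 8 genes of the inner root sheath, the follicle layer that moulds the shaft. It was 0.610 for 7 other shaft and cuticle proteins and 0.251 for 10 regulators of shaft formation such as Foxn1 and Hoxc13. For 1 marker of the companion layer of the follicle it was 0.619, and for 13 skeletal muscle markers 0.248. It was -0.185 for basal and -0.0527 for suprabasal epidermal markers, 0.274 for fibroblast, 0.310 for melanocyte, -0.129 for sebaceous gland and 0.0493 for macrophage markers. Collagen 3 was the highest array in 11 of 12 hair shaft keratins and in 0 of 10 regulators. Krt33a, a keratin of the cortex, read 8.898, 8.873, 8.845 and 8.880 in the control arrays and 8.814, 8.848, 8.911 and 8.837 in the collagen arrays. Its ends were again collagen 3 and collagen 1.

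Among the 762 genes with a range over 0.001, likeness was measured as r over the 8 arrays with the mean pattern of the Krtap genes, whose own pattern is part of that mean. The 50 most alike held 29 of the 33 Krtap genes and 7 of 9 hair shaft keratins of this range. The most alike genes without a Krtap symbol were Gm11563 and Calhm4 (both r = 0.963), Gm10228 (0.961), Krt33a (0.959), Gm11567 and Krt83 (both 0.957) and Gprc5d (0.953). Gm10228 shares a probe set with Krtap6-1, and Gm11567 shares one with Krtap9-1, so predicted genes of this list can be Krtap paralogs under another symbol.

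The diet comparison asked whether 1 week of the collagen hydrolysate went with other levels of Krtap genes. By limma's moderated test, with Benjamini-Hochberg adjustment over 18193 genes and a threshold of 0.05, 0 of 38 Krtap genes passed, against 0.0% of all genes. The smallest adjusted p among them was 0.999. At unadjusted p under 0.05 there were 0 of 38, against 3.49% of all genes. In no Krtap gene were the diets free of overlap, against 2.02% of all genes. The mean was lower with collagen in 23 of 38 (60.5%), against 47.1% of all genes, and the median difference was -0.45 within-group SD, against 0.05 over all genes. After quantile normalization 22 of 38 were lower against 34.4% of all genes, and after median centring 22 of 38 against 5.38%, so the background moved with the scaling while the Krtap count hardly did.

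The subfamilies differed in the sign of this difference, which passed the test in no gene, and the contrast between subfamilies was not tested. It was negative in 5 of 5 Krtap4 and 3 of 3 Krtap6 genes, and positive in 5 of 5 Krtap5 genes and in 5 of 6 Krtap19 genes, Krtap19-9b being the exception. Quantile normalization and median centring left these 4 counts as they were, but leaving out or weighting arrays did not. Without control 3 it was negative in 3 of 5 Krtap5 genes. Without collagen 3 it was negative in 5 of 5 Krtap4, 5 of 5 Krtap5, 3 of 3 Krtap6 and 6 of 6 Krtap19 genes. With array weights it was negative in 0 of 5 Krtap4, 0 of 5 Krtap5, 1 of 3 Krtap6 and 0 of 6 Krtap19 genes, so in both of these fits the subfamilies no longer had opposite signs. By class it was negative in 7 of 10 high sulfur, 6 of 12 ultra-high sulfur and 8 of 13 high glycine-tyrosine genes. The members of a subfamily vary together, so such a count is not a count of independent results.

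Krtap7-1, a high glycine-tyrosine gene, had the smallest unadjusted p. It read 8.25, 8.23, 8.19 and 8.22 in the control arrays and 8.13, 8.19, 8.24 and 8.15 in the collagen arrays. Collagen 3 lay among the upper control arrays, collagen 2 just above control 3, and collagen 1 and collagen 4 below all control arrays. The difference, collagen minus control, was -0.0427 ± 0.0275 (SE) with an unadjusted limma p of 0.167 and an adjusted p of 0.999. For Krtap15 it was -0.0758 ± 0.0547, and for Krtap8-1 -0.0553 ± 0.0452, with unadjusted limma p-values of 0.212 and 0.264 in that order. Krtap6-3 differed by -0.00184 ± 0.0013 on its main probe set and by 1.2e-08 on its second, which was nearly flat. Krtap16-3 likewise had opposite signs, -0.0167 on the main and 7.38e-05 on the second probe set, with r of 0.968 between them. The other 3 genes with a pair of probe sets had both in the same direction.

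Of the arrays left out 1 at a time, collagen 3 changed the diet difference most, including its sign in 14 genes. Other arrays moved it too. Without control 3 the mean was lower with collagen in 30 of 38 genes, with a median of -0.575 within-group SD. The median was -0.188 SD without collagen 1 and -0.215 SD without control 1. Without collagen 3 the mean was lower with collagen in 37 of 38 Krtap genes, against 46.4% of all genes, and the median difference was -1.89 within-group SD. Since collagen 3 was the highest array in 33 of these genes, leaving it out lowers the collagen mean of those 33 by construction. Leaving it out can also narrow the spread: in Krtap15 the within-group SD went from 0.0804 to 0.0306. Collagen 3 was the highest array in 7.16% of all genes, so the all-gene shares here are no like reference. The unadjusted p-values and overlap counts without it are therefore no test of the diet, and the members vary together. In that fit 21 of 38 had an unadjusted limma p under 0.05, all of them lower, against 3.12% of all genes, and 19 had no overlap between the diets, against 3.73%. At the adjusted threshold 0 of 38 passed, with a smallest adjusted p of 1.0. All 5 Krtap4 genes were among the 19, and 0 of 5 Krtap5 genes. Krtap4-6 then differed by -0.0444 ± 0.0118 (SE, 3 collagen arrays) and Krtap15 by -0.129 ± 0.0223, with unadjusted limma p-values of 0.011 and 0.0016 in that order. Krtap13 was the single gene that stayed higher, by 1.55e-07 ± 4.94e-07.

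**Figure D5:**
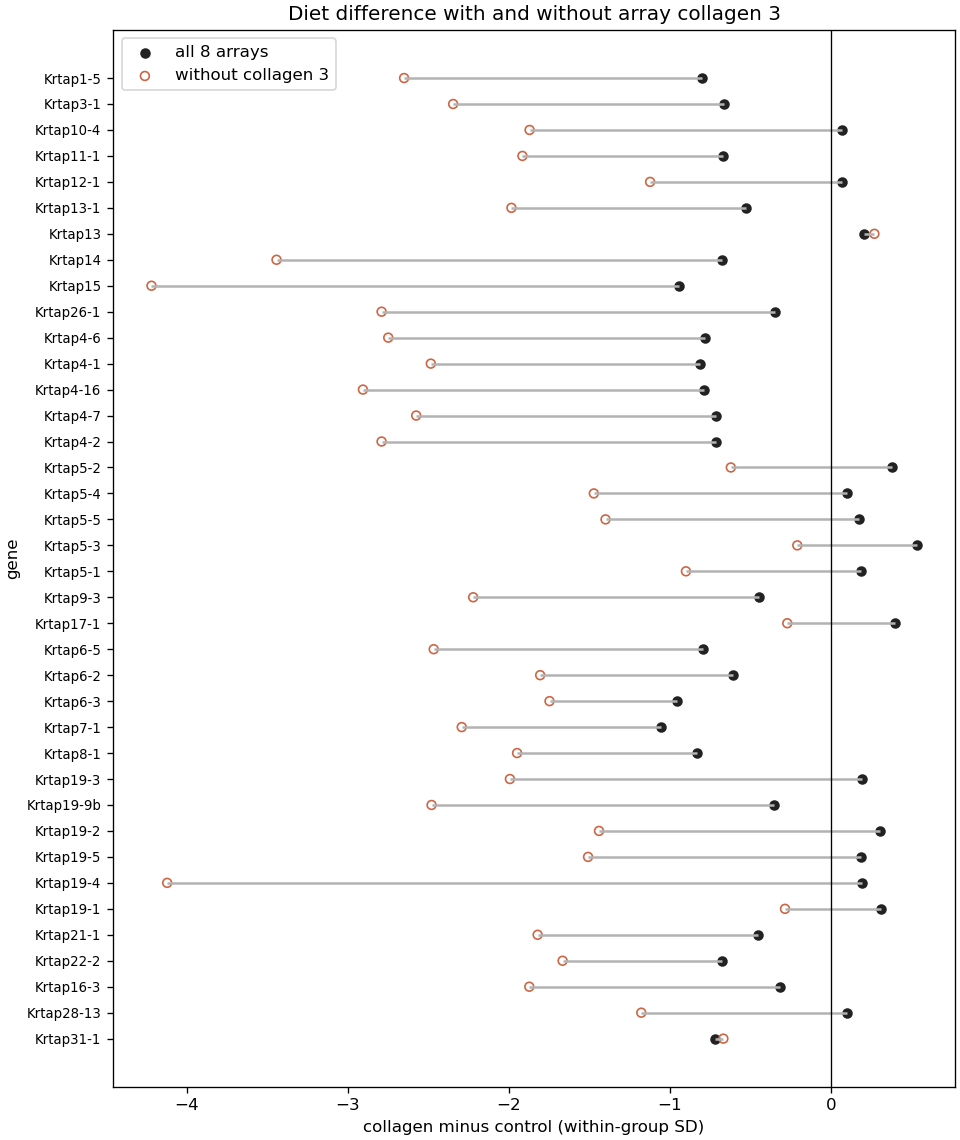
Collagen minus control in within-group SD (x axis) for each Krtap gene (y axis, ordered by class), with all 8 arrays (filled) and without collagen 3 (open). Open points lie below 0 for 37 of 38 genes, with a median of -1.89 SD, and filled points for 23, with a median of -0.45 SD.

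With weights for each array estimated by limma, collagen 3 got the highest weight, 2.63. The mean was then lower with collagen in 4 of 38 Krtap genes and the median difference was 0.38 SD, the opposite sign. That fit changed the weights of all 8 arrays, which ran from 0.556 to 2.63, so the change of sign cannot be put down to collagen 3 alone.

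Hair shaft keratins gave the same counts of calls. By limma 0 of 12 passed the adjusted threshold and 0 of 12 had an unadjusted p under 0.05, against 0.0% and 3.49% of all genes. As deposited 9 of 12 were lower with collagen, after median centring 7 and after quantile normalization 6. Of all genes 47.1%, 5.38% and 34.4% were lower in that order, so the background moved with the scaling too. All 12 keratins were lower without collagen 3, but 6 of 12 without collagen 1 (median 0.03 SD) and 1 of 12 with array weights (median 0.38 SD). All 8 inner root sheath genes were lower with collagen (47.1% of all genes) and lowest in collagen 1 (17.6% of all genes). Of the shaft and cuticle proteins 5 of 7 were lower, and of the regulators 5 of 10. By limma 0 genes of these 3 lists passed the adjusted threshold or had an unadjusted p under 0.05. Krt84 had the smallest unadjusted p of the keratins, 0.0848, with a difference of -2.22e-06 ± 1.09e-06. Of 13 skeletal muscle markers 12 were lower with collagen, against 47.1% of all genes. Their mean z value ran from -0.55 to 1.13 in the control arrays and from -1.47 to 0.18 in the collagen arrays, with 0.17 in collagen 3. With this score as a covariate 23 of 38 Krtap genes were lower, with a median of -0.20 SD. All 6 dermal fibroblast markers were lower with collagen (median -0.80 SD), against 47.1% of all genes. All 5 melanocyte markers were higher (median 1.38 SD), as were 9623 of all 18193 genes. Of these 5 markers 2 had an unadjusted limma p under 0.05, against 3.49% of all genes. The counts for these marker lists rest on the values as deposited. Mean z values of the fibroblast markers ran from -0.48 to 0.88 in the control and from -1.48 to 0.69 in the collagen arrays. Those of the melanocyte markers ran from -1.27 to 0.45 in the control and from -0.39 to 1.28 in the collagen arrays, with 1.23 in collagen 3. By limma 0 of these fibroblast and melanocyte markers passed the adjusted threshold, and their part in the Krtap values was not tested. The difference between the 3′ and 5′ probe sets of Gapdh, a sign of RNA quality, ran from 0.2898 to 0.2904 in the control and from 0.2900 to 0.2906 in the collagen arrays, and with it as a covariate 24 were lower.

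The 6 Krtap probe sets with several symbols, which cannot be given to 1 gene, showed the same ends. All 6 were highest in collagen 3 and 5 of 6 lowest in collagen 1. Close paralogs of this family can share probes, and 3 of the 38 main probe sets were of the kinds whose probes match several transcripts.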

How the data were processed

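Biotin-labelled RNA of dorsal skin was read on 1-colour arrays. The authors deposited values for 8 arrays in 1 table, read here as log2, and R 2.7.2 is named in the submitters' processing notes. How probes were summarised and normalized, and the build, is not stated in the sources used here. The scale was taken as log2 from the span of the values, 6.56 to 14.46, which does not prove it. The 64 control probe sets were left out, leaving 45037. The 43 Krtap probe sets were named by the platform annotation, and all 38 symbols matched the RefSeq genes of assembly GRCm38.p6.

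Values were used as deposited. Genes were fitted in R 4.3.3 by limma 3.58.1 (lmFit, then eBayes, two-sided, no covariate, 4 arrays against 4, Benjamini-Hochberg adjustment over 18193 genes, threshold 0.05; prior degrees of freedom 0.488). On simulated data with 200 changed genes limma recovered 34.4% shifted by 4 and 94.7% by 8 within-group SD. Tables were handled with data.table (version 1.17.8) and pandas 2.3.3, and figures drawn with matplotlib 3.10.9. P-values measure the spread between these arrays only.

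Named genes were, per subfamily, the gene of highest level and the one of widest range, the 4 with the smallest p, those whose probe sets disagreed in sign, and the highest and smallest-p gene of each hair list; others were named after their values were seen. Members and lists were chosen with earlier results of these data known. A rule by protein composition was not used here, and classes follow the usual assignment of the subfamilies (high sulfur 1, 3, 10 to 15 and 26; ultra-high sulfur 4, 5, 9 and 17; high glycine-tyrosine 6, 7, 8, 19, 21 and 22), with Krtap16, Krtap28 and Krtap31 not classed. Replicate numbers were checked for pairing by correlating the deviations of control and collagen arrays from their diet means. Arrays of the same number had correlations of 0.362, 0.0486, 0.215 and 0.0111, and arrays of different numbers -0.283 to 0.175. These values do not decide whether arrays of the same number share something. The labels name no pairs, so arrays were not treated as pairs in the main fit. Alternatives were left-out arrays, scalings, probe set choices, variance models, array weights, covariates and a replicate block.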

Additional observations from a re-analysis of the deposited data

Results flagged for a closer look

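In 5 of 64 groups of 4 arrays, taken over the 32 named genes and both diets, 1 array stood far from the other 3 (Dixon's gap over range, above its critical value). Chance flags about 1 in 20 groups. In 4 of them the array was collagen 3, the highest of its diet. Krtap10-4 read 8.8963 there against 8.8957 to 8.8958 in the other collagen arrays. Krtap14 read 7.617 against 7.553 to 7.563, Krtap19-9b read 8.062 against 8.022 to 8.027, and Krtap26-1 read 7.8965 against 7.8952 to 7.8953. In the fifth group the array was control 1, where Krtap6-3 read 7.3977 against 7.3937 to 7.3942 in the other control arrays. The genes vary together, so these are not independent.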

How the results depend on the processing

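The count of 0 Krtap genes and of 0 hair shaft keratins past the adjusted threshold held under each alternative run. Leaving out 1 array at a time gave 22 to 37 Krtap genes lower with collagen, a median difference of -1.89 to -0.19 SD, a median pairwise r of 0.757 to 0.864, and 33 to 36 genes highest in the array most often highest. The upper count and the lowest median came without collagen 3. With array weights 4 genes were lower and the median was 0.38 SD; the cause was not tested. Among the 12 genes with a mean at or above 8.193, 8 were lower and 11 were highest in collagen 3, fewer because fewer genes were counted. The median r was 0.620 without collagen 3 and control 1, an alternative chosen after seeing the data. With the replicate block 23 genes were lower, 0 passed, and the median was -0.39 SD. For the 32 named genes, 0 of 512 refits passed the threshold (adjusted p from 0.625 to 1.0), and 43 had the other sign, 16 of them with array weights. Limits are the 4 arrays per diet, the unknown scale of the differences, the unknown signal over background, and bulk skin whose share of follicles is unknown.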
